A study of Homo sapiens with 4 samples.

Results

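Mitochondrial ribosomal protein genes were read on 4 whole-transcript arrays of 22Rv1, a castration-resistant line of human prostate cancer. The members are all probe sets whose single symbol in the platform table is MRPL or MRPS followed by a number and, in some, a letter A to C. These were 74 probe sets for 74 of the 17687 named genes, 49 of them for proteins of the large subunit and 25 for the small subunit. The 4 groups, with 1 array each, were siOCT1 cells in vehicle, siOCT1 cells in DHT, siControl cells in vehicle and siControl cells in DHT. siOCT1 is an siRNA against OCT1, the octamer-binding factor encoded by POU2F1, and siControl is the control siRNA. Vehicle was ethanol, and DHT was dihydrotestosterone, the potent androgen, at 10 nM. All 4 cultures were kept for 3 days in medium with 2.5% charcoal-treated serum, were transfected 48 h before the hormone and were exposed to DHT or ethanol for 24 h. POU2F1 itself was not analysed here, which leaves the depletion unchecked, and the number and sequence of the siRNAs are not given in the sources used here. The comparisons ask how the members differ after the OCT1 siRNA and whether they respond to androgen with and without it.

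The mitochondrial ribosome translates the few messages of mitochondrial DNA, all of them for subunits of the respiratory chain and ATP synthase. Its RNAs come from mitochondrial DNA, but every protein of it is encoded in the nucleus, made on cytosolic ribosomes and imported. Many of the proteins have bacterial counterparts, and the rest were added in mitochondria. The name does not always tell the subunit: MRPS30 and MRPS18A lie in the large subunit of the human mitoribosome and were counted there. Processed pseudogenes are common in the family, with 94 named after 38 of the 74 members in RefSeq, and whether the probes share sequence with them was not checked.

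Values are log2 signals, differences are log2 differences, and no difference has a replicate check, because each group is 1 array. Genes were taken as measured if the brightest of their 4 values was above 6.51, which is the median of such maxima for the named genes. This left 8843 genes and 71 members, all but MRPL33, MRPL54 and MRPS31. The background of an array was set at the 95th percentile of its negative controls, which was 7.39 and 6.91 on the siOCT1 arrays in vehicle and DHT, and 6.62 and 6.99 on the siControl arrays. Of the measured members 54 lay above it on all 4 arrays. The median of the positive control probe sets was 12.13 and 12.19 on the siOCT1 arrays, against 12.34 and 12.19 on the siControl arrays. The luminal epithelial genes EPCAM, HOXB13, KRT8 and KRT18 lay above background on all 4 arrays, and the stromal, leukocyte, endothelial and basal markers COL1A1, VIM, PTPRC, PECAM1 and KRT5 lay below it on all 4. Of the luminal genes KRT8 was called lower in siOCT1 cells, with 13.36 and 14.28 in vehicle and DHT against 13.87 and 15.72 in siControl cells (limma adjusted p = 0.0342), and its part in the results was not tested. TP63 and the mitoribosomal genes MRPL45, MRPL53 and MRPS6, which are not among the 74, were not analysed here. In RNA of whole cultures, fewer cells of a type and less RNA per cell cannot be told apart.

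Most members had lower signal in siOCT1 cells, with differences below 0 in both ligand states for 54 of 71 (76.1%, against 42.0% of all measured genes). Of the 71 measured members 26 were lower by at least 1.5-fold in both vehicle and DHT, where 18.7% of all measured genes were, and 2 were higher by that size, where 12.2% were. The median difference over members was -0.72 in vehicle and -0.46 in DHT, against -0.06 and -0.07 over all measured genes. Both siOCT1 arrays lay below both siControl arrays for 47 members, 66.2% against 34.5% of all measured genes, and above both for 5, where 27.0% of all measured genes were. The limma fit of siRNA and ligand over all measured genes called 20 members as fallen and 0 as risen after Benjamini-Hochberg adjustment, where 15.3% and 9.10% of all measured genes were called, and 35 members stood lower and 2 higher at an unadjusted p under 0.05, where 23.1% and 16.2% of all measured genes did. Of those 20 members 17 lay above background on every array, and all 20 also passed the size rule. The fit has 1 residual degree of freedom, which is the siRNA-by-ligand difference and not the spread between repeat cultures, and 18.6% of the negative control probe sets differed by at least 1.5-fold the same way in vehicle and in DHT.

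**Figure D1:**
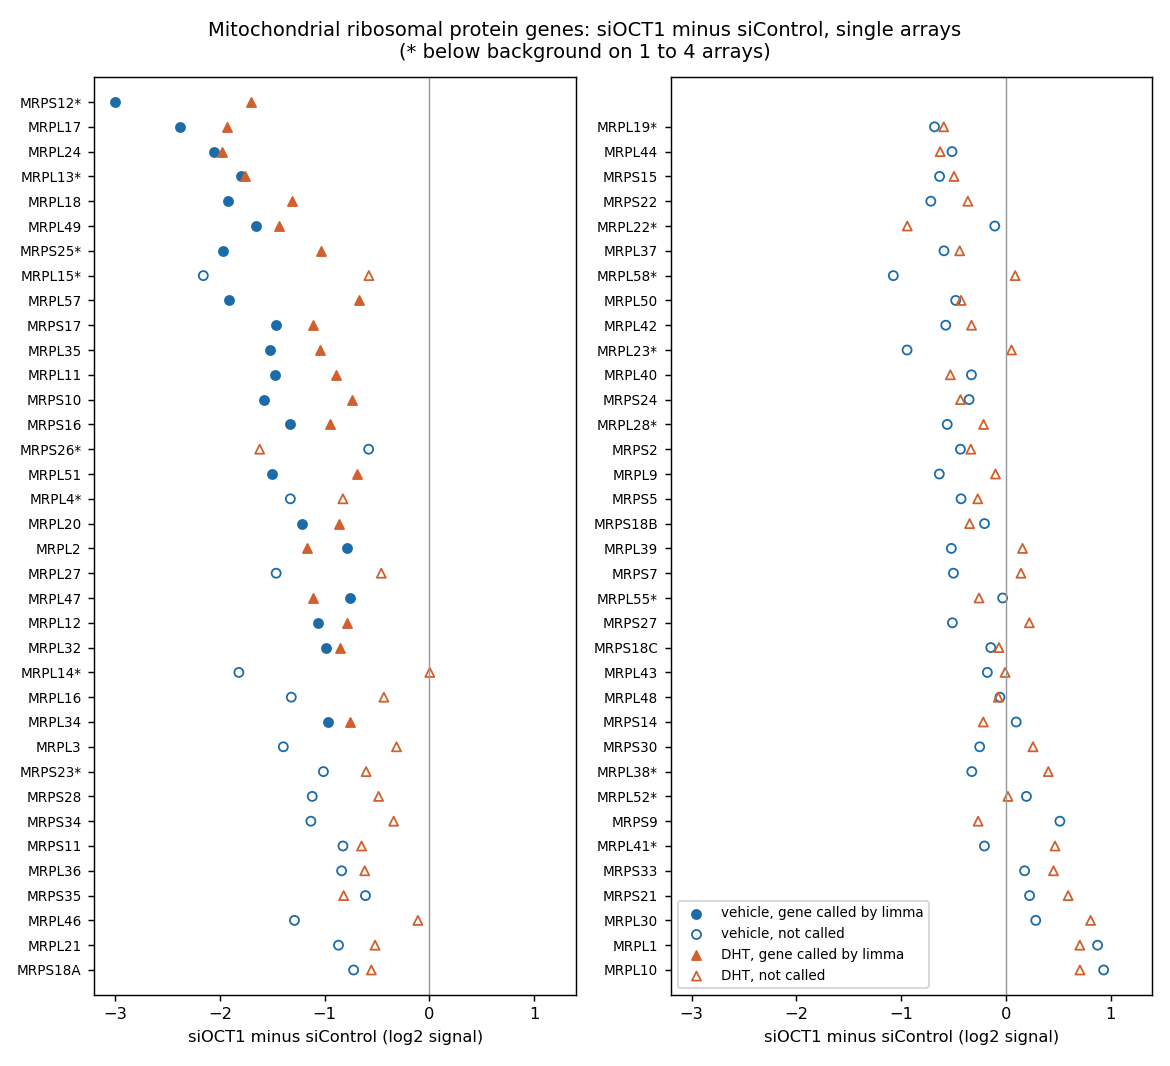
Difference between siOCT1 and siControl (log2 signal, x axis) for each of the 71 measured members, sorted by the mean of both ligand states from the lowest (top left) to the highest (bottom right). Circles are the pair of arrays in vehicle and triangles the pair in DHT, filled symbols mark the 20 members that limma called, and an asterisk marks members below background on 1 to 4 arrays. Most symbols lie left of 0, and only MRPL1 and MRPL10 lie at least 1.5-fold to the right in both.

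The largest falls among members above background on every array were in large subunit genes. MRPL17, a protein near the exit of the peptide tunnel with a bacterial counterpart, had signals of 9.78 and 9.92 in siOCT1 cells in vehicle and DHT, against 12.17 and 11.85 in siControl cells. Both siOCT1 values lay below both siControl values, and the gene fell by 2.16 on average (SE 0.25, limma adjusted p = 0.00357). MRPL24, whose bacterial counterpart starts large subunit assembly, had 9.23 on both siOCT1 arrays, against 11.29 and 11.22 on the siControl arrays. Its difference was nearly the same in both ligand states, -2.06 and -1.98 (limma adjusted p = 0.00384). MRPL18, of the central protuberance, had 9.70 and 10.42 in siOCT1 cells, against 11.63 and 11.74 in siControl cells. The siOCT1 value in vehicle was the lowest of the 4, and the gene fell by 1.62 (SE 0.27, limma adjusted p = 0.00871). MRPL49, which has no bacterial counterpart, had 8.95 and 9.05 in siOCT1 cells, against 10.61 and 10.49 in siControl cells, without overlap. It fell by 1.55 (SE 0.25, limma adjusted p = 0.00855).

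The next 4 had smaller falls that were all larger in vehicle. MRPL57, a short mitochondria-specific protein, had 9.19 and 10.23 in siOCT1 cells, against 11.10 and 10.90 in siControl cells. Its siOCT1 value in DHT lay closer to the siControl values than the one in vehicle, with differences of -1.92 in vehicle and -0.67 in DHT and a limma adjusted p of 0.0359. Its call was lost without a filter (adjusted p = 0.0618), with values raised to the highest background (0.0643) and without trend (0.0583). MRPS17, an RNA-binding protein of the small subunit body, had 8.95 and 9.29 in siOCT1 cells, against 10.42 and 10.40 in siControl cells. MRPL35 had 9.19 and 9.24, against 10.71 and 10.28. Both groups stood apart for both genes, with differences of -1.46 and -1.11 for MRPS17 and of -1.52 and -1.05 for MRPL35 in vehicle and DHT. MRPL11, at the base of the flexible stalk that recruits translation factors, had 8.60 and 9.06 in siOCT1 cells, against 10.08 and 9.95 in siControl cells, and fell by 1.19 (SE 0.28, limma adjusted p = 0.0246).

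Of the other 12 fallen members 9 lay above background on every array: MRPS10, MRPS16, MRPL51, MRPL20, MRPL2, MRPL47, MRPL12, MRPL32 and MRPL34. Their mean falls ran from 1.16 for MRPS10, a protein of the small subunit head, to 0.87 for MRPL34, with limma adjusted p of 0.0201 to 0.0436. MRPL12, the stalk protein that is also known to bind mitochondrial RNA polymerase, stood at -1.06 in vehicle and -0.79 in DHT. The other 3 had values below background. MRPL13 had 6.56 and 6.81 in siOCT1 cells, both below background, against 8.35 and 8.57 in siControl cells, so that the gene was lower in siOCT1 cells by at least 1.94-fold in vehicle and by at least 3.16-fold in DHT. MRPS25, without a bacterial counterpart, had 6.95 and 8.49 in siOCT1 cells, against 8.91 and 9.53 in siControl cells, a difference of at least 2.87-fold in vehicle and of 2.04-fold in DHT. MRPS12, a protein of the decoding centre, lay below background on all 4 arrays, at 3.62 and 4.70 in siOCT1 cells and 6.62 and 6.40 in siControl cells, so no fold is given for it although limma called it.

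The 6 highest members above background were not called. MRPL10, which anchors the stalk of MRPL12 to the ribosome, had 8.42 and 8.24 in siOCT1 cells, against 7.48 and 7.54 in siControl cells. Both siOCT1 values lay above both siControl values, with a mean difference of 0.82 (SE 0.28, limma adjusted p = 0.0734). MRPL1, the protein of the mobile stalk beside the tRNA exit site, had 9.75 and 10.29 in siOCT1 cells, against 8.87 and 9.58 in siControl cells, again without overlap, and a mean difference of 0.79 (SE 0.25, limma adjusted p = 0.0614). These 2 were the members past the size rule upward, and each was called in 2 alternatives described under the processing. MRPL30 stood at 0.29 in vehicle and 0.81 in DHT, MRPS21 at 0.23 and 0.60, MRPS33 at 0.18 and 0.45, and MRPS9 at 0.52 and -0.27, so the signs of MRPS9 differ between the ligand states.

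**Figure D2:**
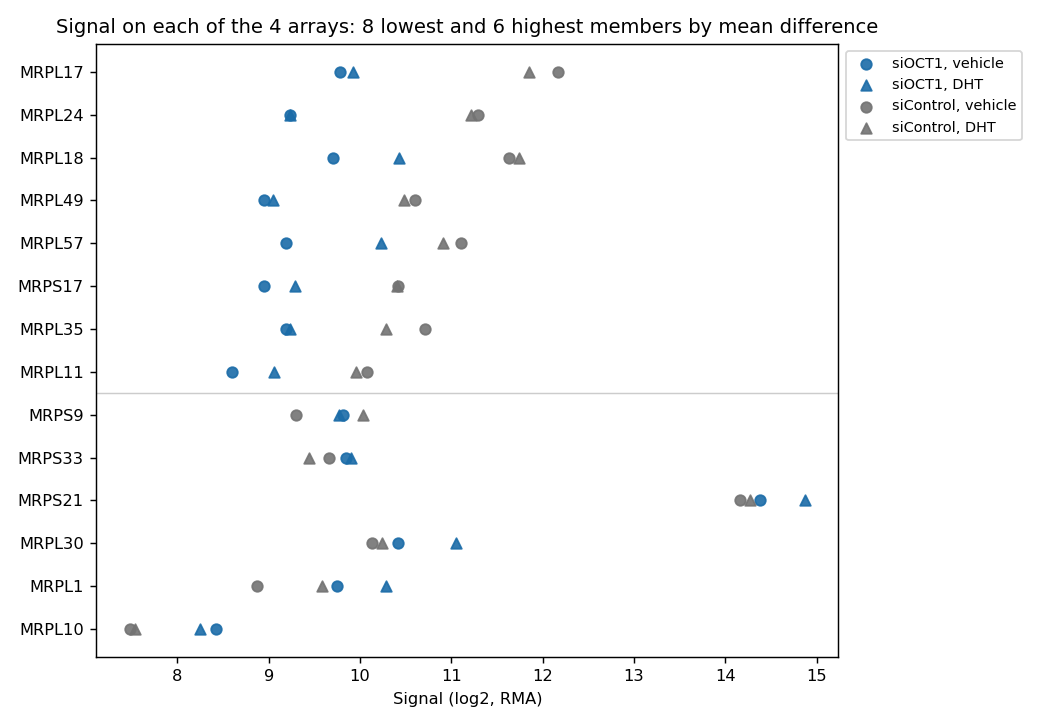
Signal (log2, x axis) on each of the 4 arrays for the 8 lowest (above the line) and 6 highest members by mean difference, among members above background on every array. siOCT1 arrays are blue and siControl arrays grey, with circles for vehicle and triangles for DHT. The groups are separate for all 8 lowest genes and overlap for MRPS9, and levels of different genes are not comparable, since probes differ.

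The difference was larger on the vehicle pair. It was more negative in vehicle than in DHT for 55 of 71 members, and the siOCT1 vehicle array held the lowest value for 51 members, 71.8% against 30.4% of all measured genes. The siControl vehicle array held the highest value for 41, 57.7% against 28.8%. In vehicle alone 42 members were lower by at least 1.5-fold, where 28.7% of measured genes were, and 2 were higher, where 22.9% were. In DHT alone 29 were lower and 4 higher, where 26.0% and 18.9% of measured genes were. The same vehicle arrays had the highest background (siOCT1) and the highest positive control median (siControl), and centring the arrays on the positive controls made the gap between the ligand states smaller. The median of the DHT difference minus the vehicle difference was 0.14 after that centring, against 0.35 as deposited, while the median over both ligand states was -0.53, against -0.64. The centring subtracts the same value from every gene of an array, so it shifts these quantities alike in members and other genes. It leaves the distance between the median of the members and that of all measured genes unchanged. Over all measured genes the median of the DHT difference minus the vehicle difference was 0.02 as deposited. Over all measured genes the median over both ligand states was 0.05 after centring, against -0.06 as deposited. Among the 54 members above background everywhere, 20 were lower in both ligand states, where 16.2% of such genes were, and limma on all genes had called 17 of them, where 14.5% of such genes were called. Across the 71 members the vehicle and DHT differences, which share no array, had a Pearson r of 0.72 and a Spearman rho of 0.69, against 0.76 and 0.73 over all measured genes, as a description of points from the same 4 arrays.

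By subunit, 15 of 47 measured large subunit members and 5 of 24 small subunit members had fallen (31.9% and 20.8%, where 15.3% of all measured genes were called lower), with median differences of -0.69 and -0.55 over both ligand states. The fallen members counted here and by origin include MRPL13, MRPS12 and MRPS25, which lay below background on at least 1 array. MRPS12 did so on all 4. By origin, 16 of 43 members with a bacterial counterpart had fallen, against 4 of 28 mitochondria-specific ones (37.2% and 14.3%), and the medians were -0.86 and -0.47. The share of mitochondria-specific members called lower was thus no higher than that of all measured genes, while their median lay below the -0.06 of all measured genes. Within the large subunit these were 12 of 28 and 3 of 19 (42.9% and 15.8%) with medians of -0.91 and -0.45, and within the small subunit 4 of 15 and 1 of 9 (26.7% and 11.1%) with medians of -0.39 and -0.72. The order of the medians thus turned round in the small subunit, and the differences between these classes were not tested. Among measured proteins at the tunnel exit 3 of 5 had fallen, MRPL17, MRPL24 and MRPL47, while MRPL22 (-0.11 and -0.94 in vehicle and DHT) and MRPL23 (-0.94 and 0.05) were not called and lay below background on 1 and 3 arrays. In the stalks MRPL11 and MRPL12 had fallen and MRPL10 and MRPL1 stood above 0, as given above, so the measured stalk proteins were split between both directions. In the central protuberance 1 of 6 had fallen, MRPL18. Of the others MRPL46 stood at -1.29 in vehicle and -0.11 in DHT, MRPL58, a peptidyl-tRNA hydrolase built into the ribosome, at -1.07 and 0.09, MRPL40 at -0.33 and -0.53, MRPL48 at -0.06 and -0.07, and MRPL38 at -0.33 and 0.41. MRPL58 and MRPL38 lay below background on the siOCT1 vehicle array, so that in vehicle they were lower by at least 1.51-fold and at least 1.04-fold. MRPS30 stood at -0.25 and 0.26 and MRPS18A at -0.72 and -0.55, neither called.

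Of 4 mitoribosomal proteins with other symbols, PTCD3, a pentatricopeptide protein of the small subunit, had 9.23 and 9.51 in siOCT1 cells, against 10.30 and 10.64 in siControl cells, and fell by 1.10 (SE 0.25, limma adjusted p = 0.0222). DAP3, a GTP-binding protein of the small subunit, stood at 0.04 in vehicle and 0.29 in DHT and CHCHD1 at 0.24 and 0.23, neither called. GADD45GIP1, of the large subunit, was below background on all arrays.

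The machinery around the ribosome was mixed, beside 15.3% of all measured genes called lower and 9.10% called higher. Of 26 measured genes of mitochondrial protein import 12 had fallen (46.2%) and 1 had risen, with a median of -0.81. GRPEL1, a co-chaperone of the import motor, had 9.82 and 10.66 in siOCT1 cells, against 12.69 and 12.83 in siControl cells, and fell by 2.51 (limma adjusted p = 0.00253). The intermembrane chaperone TIMM10 stood at -2.54 in vehicle and -1.44 in DHT and the outer membrane pore TOMM40 at -2.64 and -1.17, and both had fallen. Of 17 mitochondrial tRNA synthetase and amidotransferase genes 3 had fallen, a share of 17.6% that was near that of all genes, among them YARS2 at -0.71 and -1.53 and QRSL1 at -0.99 and -0.97, with a list median of -0.56. FARS2, at -1.62 and -0.29, was not called.

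Of 11 genes of mitochondrial DNA transcription and packaging 2 had fallen, 18.2% and again near the share of all genes, with a median of -0.37. TFAM, which packages mitochondrial DNA and starts its transcription, fell by 1.73 and SSBP1 by 0.97. In the assembly and ribosomal RNA modification list 2 of 23 had fallen (8.70%) and 2 had risen, with a median of -0.29. The methyltransferase gene MRM2 fell by 1.25, and NOA1, a GTPase, and RPUSD4, a pseudouridine synthase, rose by 1.11 and 1.09. Of 15 translation factors and message-binding proteins 1 had fallen, SLIRP, at -1.65 and -0.79, while its binding partner LRPPRC stood at 0.70 and 0.67 without a call, and the list median was -0.06, equal to that of all measured genes. Cytosolic ribosomal protein genes lay on the other side, with 31 of 49 risen, 0 fallen and a median of 0.64.

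**Figure D3:**
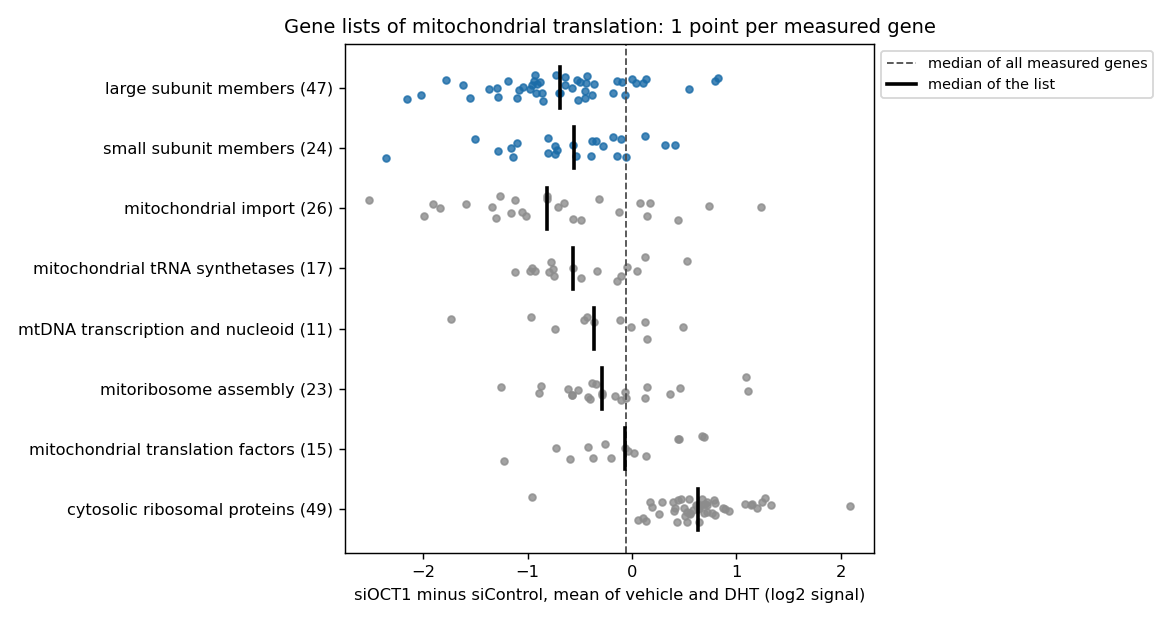
Difference between siOCT1 and siControl, mean of vehicle and DHT (log2 signal, x axis), with 1 point per measured gene, for the members by subunit (blue) and other lists (grey), with the number of genes in brackets. Black bars are list medians and the dashed line is the median of all measured genes. The bars run from -0.81 for import to 0.64 for cytosolic ribosomal proteins, with the members at -0.69 and -0.55.

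The promoter windows of the members, from RefSeq (GRCh38.p14), cover 250 bases before and 50 after each annotated start and were found for 66 of the 74 members. They were searched on both strands for the octamer ATGCAAAT that OCT1 binds, an ETS factor motif CCGGAAG, a YY1 motif AAGATGGC, the NRF1 motif (GCGC and TGCGC with 1 free base between them) and the E-box CACGTG. A member or gene was counted if any of its windows held the motif, while the share of all windows counts each window singly. Shares of genes and of windows are therefore unlike measures. The octamer was in 0 of 66 members' windows, in those of 1.79% of measured genes and in 1.77% of all windows. The ETS motif was in 29 members (43.9%, against 24.7% of measured genes and 10.3% of all windows) and the YY1 motif in 20 (30.3%, against 7.51% and 2.89%). NRF1 and E-box motifs were in 8 members each (12.1%), against 15.2% and 13.1% of measured genes and 5.78% and 7.26% of all windows. The ETS and YY1 matches overlapped in 0 members, although their letters allow it. The ETS motif was in 7 of the 17 fallen members with a window (the dim MRPS12 and MRPS25 included) and in 19 of 46 other measured members, and the YY1 motif in 7 and 13. Measured members with and without the ETS motif had median differences of -0.69 and -0.56. For the YY1 motif these were -0.58 and -0.57, for the NRF1 motif -0.80 and -0.56, and for the E-box -0.52 and -0.64. A match is a description of letters and does not show a bound site.

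The stretches shown run from 170 bases before to 30 after an annotated start, 5′ to 3′ on the gene's strand, with motif matches in capitals. Where a gene has several annotated starts, the one whose stretch holds the most motif matches was shown. The matches in these stretches are therefore not typical of all starts of a gene. MRPL20, MRPL47, MRPL51 and MRPS10 are the fallen members above background that hold both the ETS and the YY1 motif, MRPL17 and MRPL24 have the largest falls among members above background on every array, and MRPL1 is the highest member with a window.
MRPL20 (chr1:1407264-1407463, minus strand): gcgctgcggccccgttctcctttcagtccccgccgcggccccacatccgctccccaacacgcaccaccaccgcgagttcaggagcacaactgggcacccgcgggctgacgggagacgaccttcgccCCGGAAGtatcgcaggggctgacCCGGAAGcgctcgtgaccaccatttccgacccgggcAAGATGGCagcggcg
MRPL47 (chr3:179604609-179604808, minus strand): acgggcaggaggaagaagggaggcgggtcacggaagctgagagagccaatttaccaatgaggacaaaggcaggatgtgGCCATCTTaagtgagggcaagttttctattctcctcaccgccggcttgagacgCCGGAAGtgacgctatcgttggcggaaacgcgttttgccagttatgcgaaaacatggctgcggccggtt
MRPL51 (chr12:6493233-6493432, minus strand): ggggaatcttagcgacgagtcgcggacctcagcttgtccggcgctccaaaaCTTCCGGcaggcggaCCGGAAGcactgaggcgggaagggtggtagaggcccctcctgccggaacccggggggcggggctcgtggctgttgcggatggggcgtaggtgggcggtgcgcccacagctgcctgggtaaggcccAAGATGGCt
MRPS10 (chr6:42217832-42218031, minus strand): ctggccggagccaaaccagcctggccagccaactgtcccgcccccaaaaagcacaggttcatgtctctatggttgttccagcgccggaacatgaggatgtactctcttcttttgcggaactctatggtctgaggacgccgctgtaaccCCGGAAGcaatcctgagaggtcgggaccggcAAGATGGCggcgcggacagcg
MRPL17 (chr11:6683311-6683510, minus strand): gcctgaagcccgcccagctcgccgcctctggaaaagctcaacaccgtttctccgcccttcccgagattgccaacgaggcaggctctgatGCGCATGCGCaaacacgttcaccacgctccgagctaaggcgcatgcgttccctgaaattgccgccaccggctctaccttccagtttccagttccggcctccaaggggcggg
MRPL24 (chr1:156741059-156741258, minus strand): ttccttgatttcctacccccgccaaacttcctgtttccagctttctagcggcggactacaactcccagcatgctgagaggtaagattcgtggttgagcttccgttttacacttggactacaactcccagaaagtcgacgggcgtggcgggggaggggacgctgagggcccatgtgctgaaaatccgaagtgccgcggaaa
MRPL1 (chr4:77862660-77862859, plus strand): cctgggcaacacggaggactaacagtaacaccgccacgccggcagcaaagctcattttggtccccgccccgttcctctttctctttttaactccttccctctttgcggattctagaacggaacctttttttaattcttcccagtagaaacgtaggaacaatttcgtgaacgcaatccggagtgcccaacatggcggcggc
In MRPL20, MRPL51 and MRPS10 the YY1 motif AAGATGGC lies within 30 bases after the start shown, which was picked by its matches. In MRPL47 it is on the other strand, upstream of the ETS match. MRPL17 holds 1 NRF1 motif, and the stretches of MRPL24 and MRPL1, which stand at opposite ends of the range, hold none of the 5 motifs.

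Of the 66 members with a window 26 start head to head with another gene, with at most 1000 bases between the starts. The partner was measured in 14 such pairs, and of the partners 3 had fallen and 1 had risen, where 15.3% and 9.10% of all measured genes were called. The median difference of the partners over the pairings was -0.05, against -0.06 over all measured genes. MRPL46 and MRPS11, 1 gene of each subunit, start 320 bases apart and stood at -1.29 and -0.83 in vehicle, and at -0.11 and -0.65 in DHT, neither called. Partners that had fallen were SKA3, a spindle attachment protein 106 bases from MRPL57, EME1, an endonuclease subunit 45 bases from MRPL27, and NCAPD2, a condensin subunit 840 bases from MRPL51. SKA3 stood at -1.44 in vehicle and -2.00 in DHT beside -1.92 and -0.67 for MRPL57, EME1 at -1.22 and -1.80 beside -1.46 and -0.46 for MRPL27, and NCAPD2 at -1.47 and -0.86 beside -1.50 and -0.70 for MRPL51. The measured partners of MRPL49, MRPL32 and MRPS12, which had fallen, were not called. FAU, a cytosolic ribosomal protein gene 49 bases from MRPL49, stood at 0.06 and 0.52, and PSMA2, a proteasome subunit 202 bases from MRPL32, at -0.22 and 0.12. SARS2, a mitochondrial seryl-tRNA synthetase gene 181 bases from MRPS12, stood at -0.16 and -0.52. GGA3, 273 bases from MRPS7, rose by 1.43, with MRPS7 at -0.50 and 0.14. The pairs named here were chosen after their values were seen.

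No member was called for a difference between DHT and vehicle. The limma fit called 0 members in either direction, where 0.679% of measured genes were called as risen and 0.305% as fallen, and 4 members stood higher and 0 lower at an unadjusted p under 0.05, before Benjamini-Hochberg adjustment, where 7.77% and 5.73% of measured genes did. The median response was 0.24 in siOCT1 cells and -0.08 in siControl cells, against 0.02 and -0.03 over all measured genes. By at least 1.5-fold, 18 members were higher and 1 lower with DHT in siOCT1 cells, where 14.1% and 11.8% of measured genes were, and 5 were higher and 4 lower in siControl cells, where 15.8% and 12.8% were. Among the 54 members above background on every array 9 were higher and 0 lower in siOCT1 cells, where 726 and 581 of 6458 such genes were. Of all measured members 3 were higher under both siRNAs, MRPS25, MRPL50 and MRPL55, and 0 lower, where 4.86% and 4.37% of measured genes were, and 14.7% of the negative controls differed by that size under both siRNAs.

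MRPL50, which has no bacterial counterpart, had 9.58 with DHT and 8.79 with vehicle in siOCT1 cells, and 10.01 and 9.27 in siControl cells. DHT was higher under both siRNAs, by 0.80 and 0.74, with a limma adjusted p of 0.256. MRPL1 had 10.29 with DHT and 9.75 with vehicle in siOCT1 cells, and 9.58 and 8.87 in siControl cells, differences of 0.54 and 0.71 (limma adjusted p = 0.354). MRPS25 stood at 0.61 in siControl cells and, in siOCT1 cells, DHT was higher by at least 2.14-fold, where its vehicle value lay below background. MRPL55 also lay below background in siOCT1 vehicle, so its response there was at least 1.30-fold, beside 2.09-fold in siControl cells. MRPL36 stood at 0.61 in siOCT1 and 0.39 in siControl cells. On the low side were MRPL37 at -0.35 and -0.50, MRPS18B at -0.46 and -0.32, MRPL16 at 0.07 and -0.82 and MRPL48 at -0.37 and -0.35, none called.

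The response to DHT was higher in siOCT1 than in siControl cells for 55 of 71 members, 77.5% against 51.7% of all measured genes, and the median gap between the responses (siOCT1 minus siControl) was 0.35, against 0.02. This is the same quantity as the larger vehicle difference above, seen from the ligand side, and each value uses all 4 arrays, so it has no test. By at least 1.5-fold 22 members were higher and 3 lower, where 17.5% and 18.0% of measured genes were. With arrays centred on the positive controls 13 were higher and 4 lower. That centring lowers the gap of every gene by the same amount, and the shares of all measured genes after it were not counted. MRPL57 had 10.23 with DHT and 9.19 with vehicle in siOCT1 cells, and 10.90 and 11.10 in siControl cells. MRPL46 had 9.77 and 8.57 in siOCT1 cells, and 9.88 and 9.86 in siControl cells. In both genes the siOCT1 vehicle array stood apart below the other arrays. MRPL3 responded by 0.72 in siOCT1 and -0.36 in siControl cells, and MRPL27 by 0.92 and -0.08. Across members the responses in siOCT1 and siControl cells had a Pearson r of 0.20 and a Spearman rho of 0.21 (71 members on 2 separate pairs of arrays), against 0.46 and 0.33 over all measured genes.

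**Figure D4:**
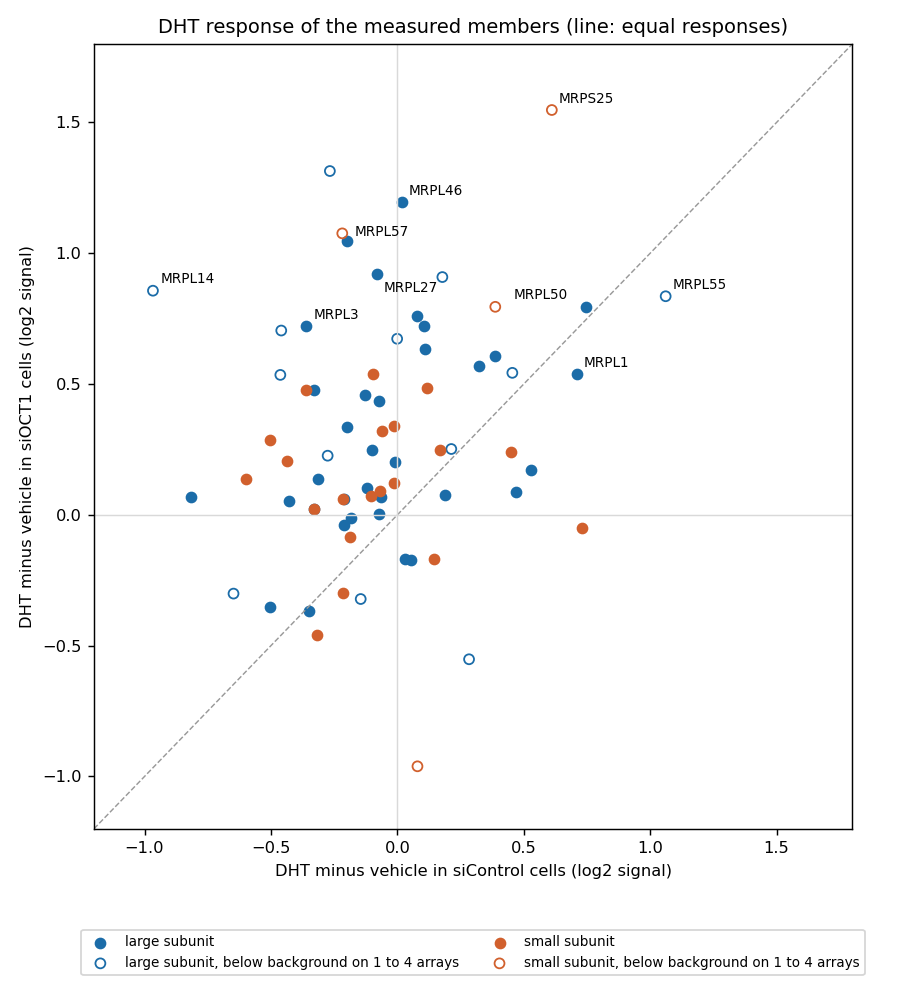
DHT minus vehicle (log2 signal) in siOCT1 cells (y axis) against siControl cells (x axis) for the 71 measured members, coloured by subunit, with open symbols for members below background on 1 to 4 arrays. The dashed line marks equal responses, and 55 of 71 points lie above it.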

How the data were processed

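Total RNA of 4 cultures, 1 for each group, was labelled with a whole-transcript kit, per the labels' protocols. The submitters' processing notes name Affymetrix Expression Console and RMA, which the authors used for the deposited log2 signals. Versions and the genome build are not given in the sources used here. Since RMA normalizes quantiles, a change of total RNA is not visible. That the scale is log2 follows from the size of the values. On each array 327 to 379 of them exceed 16, the most a 16-bit scanner gives, so folds hold on the deposited scale only.

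Of 24351 probe sets 17709 had 1 symbol, 0 had several and 3739 transcript probe sets were unnamed here. For 20 genes the probe set with the highest mean was used. The size rule is 1.5-fold in both states of the other factor. limma 3.58.1 (eBayes with trend, R 4.3.3) fitted siRNA and ligand as additive terms to the 8843 measured genes, with Benjamini-Hochberg adjustment at 0.05. "Rose", "fell", "risen", "fallen" and "called" refer to it. An "at least" fold sets the brighter value against the background of the dimmer array, where the gene was below it. Precision is limited by having 1 array a group.

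The members and lists were chosen with earlier results of these data known. Named genes were the 8 lowest and 6 highest members by siOCT1 difference, the 4 lowest and 4 highest by DHT difference and the 4 with the largest change of DHT response, all above background on every array. Structural sites and up to 3 genes per other list were added. The other lists are mitoribosomal proteins with other symbols, translation factors, assembly, tRNA synthetases, mitochondrial transcription, import, cytosolic ribosomal proteins, cell markers and genes of mitochondrial DNA, of which 0 matched a named gene. On simulated data for the siRNA comparison (8843 genes, noise SD 0.30), limma recovered 32% of 2-fold and 100% of 4-fold changes with 13 false genes. The size rule recovered 70% and 98% with 129. These figures hold for the simulated noise only. Of 612 real negative control probe sets, 114 (18.6%) moved by 1.5-fold or more, alike in vehicle and DHT. That share is far above 129 of 8843, so the simulated counts cannot serve as error rates of these arrays. Alternatives were a 2-fold rule, other filters, the mean of probe sets, loess or positive control centring, values raised to background, 32 added before the logarithm, and limma without trend or robust. In 3024 of 3024 overlapping promoter windows on opposite strands the sequences were reverse complements. Python 3.11.15 with numpy 2.4.6 and pandas 2.3.3 did the rest.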

Additional observations from a re-analysis of the deposited data

Results flagged for a closer look

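MRPL14 responded to DHT by 0.86 in siOCT1 cells and by -0.97 in siControl cells, past 1.5-fold in opposite directions. It had 7.53 with DHT and 6.68 with vehicle in siOCT1 cells, and 7.53 and 8.50 in siControl cells, and the siOCT1 vehicle value lay below background, so the response there was at least 1.10-fold. The difference between the responses was not tested.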

How the results depend on the processing

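No paired analysis was possible because each group is 1 array and the labels give no replicate numbers. The median siOCT1 difference stayed between -0.67 and -0.53 under all alternatives. The 26 of 71 members lower in both ligand states became 9 with a 2-fold rule and 17 of 45 with the stricter filter. The 2 higher became 0 and 1. The stricter filter thus counts fewer members. The count of members called lower by limma was 20 as deposited, 13 without a filter, 13 without trend and 11 where dim values were set to the highest background. Without trend 12 of the 20 kept their call. Of the 20, 11 were called in every alternative they were tested in. Among these 11, MRPS12 was tested in 7 alternatives and MRPL13 and MRPS25 in 8 each, where MRPL17 was tested in 10. Alternatives that drop dim genes left these 3 out, so their calls were not tried there. Members that lost the call in at least 1 alternative were MRPL2, MRPL11, MRPL12, MRPL32, MRPL34, MRPL47, MRPL51, MRPL57 and MRPS10, at adjusted p up to 0.0833. Members called higher were 0 as deposited, 2 with loess centring (MRPL1 and MRPS21), 2 with positive control centring (MRPL1 and MRPL10) and 1 with raised values (MRPL10). Over all measured genes the limma count was 1353 lower and 805 higher, with 1266 and 1123 after loess centring and 1344 and 1218 after positive control centring. The count of all genes called lower was 1044 of 17687 without a filter, 1110 of 8843 without trend and 920 of 7734 with raised values. Of the 3 members higher with DHT under both siRNAs, 0 remained with a 2-fold rule, and 1 was counted with the stricter filter or with only genes above background on every array, the 1 alternative added after seeing the data. For the change of DHT response, 22 higher became 8 with a 2-fold rule, 11 with the stricter filter, 13 with positive control centring and 14 above background everywhere, and 3 lower became 1 with the 2-fold rule, the stricter filter, raised values or above background everywhere. Above background everywhere these were 14 and 1 of 54 members, where 943 and 1093 of 6458 such genes were. For the other alternatives to the size rule, the shares of all genes are not given here. Positive control centring lowers the change of DHT response by the same amount in every gene, members or not. No DHT call of a member appeared in any limma setting. The causes were not tested, apart from filters, which count fewer members. Dim members are limited by background, since 17 measured ones lie below it on 1 to 4 arrays.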
